A study of Homo sapiens with 18 samples.

Results

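The genes described here encode the proteins of the mitochondrial ribosome. They were taken by name, as every gene of the count table whose symbol begins with MRPL or MRPS followed by a number and, in some, the letter A, B or C. This gave 78 of 57500 genes, 49 named MRPL and 29 named MRPS, on 21 chromosomes. All 78 passed the filter on low counts and were among the 16994 genes tested. Measured values played no part in choosing them. By the subunit in which each protein sits, assigned from general knowledge of the proteins and not from a file, 51 belong to the large subunit, including MRPS18A and MRPS30 despite their names, and 26 to the small subunit. MRPS36 is counted apart, since its product is now known as a component of the 2-oxoglutarate dehydrogenase complex.

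The mitochondrial ribosome translates the few mRNAs that mtDNA encodes, all of them for subunits of the respiratory chain and ATP synthase. Its rRNAs come from mtDNA, whereas every one of its proteins is encoded in the nucleus, translated in the cytosol and imported, so that the particle is built from both genomes. It descends from a bacterial ribosome but has lost much rRNA and gained many proteins, so the proteins form a conserved set with bacterial homologues and a set that bacteria lack. In these data the messages of the nuclear set were measured in cells treated to remove their mitochondria.

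The libraries came from IMR90, an established line of human lung fibroblasts, which the study's methods describe as overexpressing Parkin, a ubiquitin ligase that marks damaged mitochondria for mitophagy. Each of 6 groups had 3 libraries. Prol are proliferating cells and Sen (IR) are cells made senescent by X-ray irradiation. Sen (IR) + CCCP are irradiated cells given CCCP, an uncoupler that in Parkin-expressing cells triggers removal of the mitochondria, and 3 further groups of such cells received sodium acetate, mtDNA by transfection, or acetate and mtDNA together (the combination). All groups are thus 1 line carrying the same transgene. The labels do not say whether replicates were separate cultures, but the paper's figure legends count n as independent experiments. The p-values thus measure the spread between libraries within that line. RNA was measured as polyadenylated RNA, in bulk, so fewer cells and less RNA per cell cannot be told apart.

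Library totals, as reads counted on genes, lay between 24624886 and 46224280, and no member had fewer than 35 counts in any library. Fibroblast markers were present in all 18 libraries (COL1A1 at 267 TPM or more). The 8 fibroblast markers summed to between 3773 and 17720 TPM, and 3 epithelial markers, mostly KRT19, to between 3.75 and 48.4 TPM, with both sums highest in Prol. The endothelial genes PECAM1, CDH5 and VWF summed to between 0.082 and 0.398 TPM, and were at 0 in 4, 12 and 0 libraries. The leukocyte genes PTPRC, CD3E, CD68 and CD14 summed to between 1.81 and 5.34 TPM, mostly from CD68 (1.23 to 4.30 TPM), and were at 0 in 2, 15, 0 and 0 libraries. The part of these lists in the results was not tested. The share of counts on the 13 protein genes of mtDNA was 2.62% ± 0.295 (SD, n = 3) in Prol, 2.11% ± 0.468 in Sen (IR) and 0.122% ± 0.0116 in Sen (IR) + CCCP. It was 0.132% ± 0.00759 with acetate, 0.0505% ± 0.00387 with mtDNA and 0.121% ± 0.100 with the combination, whose replicate 2 had 0.237%, against 0.0640% and 0.0624% in the other two. Replicate 3 of Sen (IR) and replicate 2 of the combination stood apart from their groups: the chi-square per gene against their partners was 22.2 to 28.3, against 2.78 to 7.75 for all other pairs. The counts of called members in the comparisons that use them are also given without them.

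The summed level of the members changed with the treatments. In TPM, which correct for gene length and library size, the 78 members summed to 3282 ± 32.4 (SD, n = 3) in Prol and 3657 ± 113 in Sen (IR). The sum was 5626 ± 72.9 in Sen (IR) + CCCP, 4545 ± 78 with acetate, 5376 ± 104 with mtDNA and 4208 ± 202.5 with the combination. All libraries of Sen (IR) + CCCP and of the mtDNA group lay above all others. On the scale used for testing, counts scaled by TMM (CPM), the same sums were 2073 ± 39.6, 2154 ± 70.1, 2544 ± 29.1, 2228 ± 40.7, 2532 ± 34.0 and 2108 ± 77.2, in the same order of groups. The 2 scales gave the same 2 groups as highest, but the step from Sen (IR) to Sen (IR) + CCCP was smaller in CPM. TMM assumes that most genes do not move: with library totals alone the median log2 fold change of all genes tested in that step was 0.29, against 0.03 with TMM. The changes below are therefore read against the median of all genes, and the split of calls with library totals is given where it differs.

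**Figure D1:**
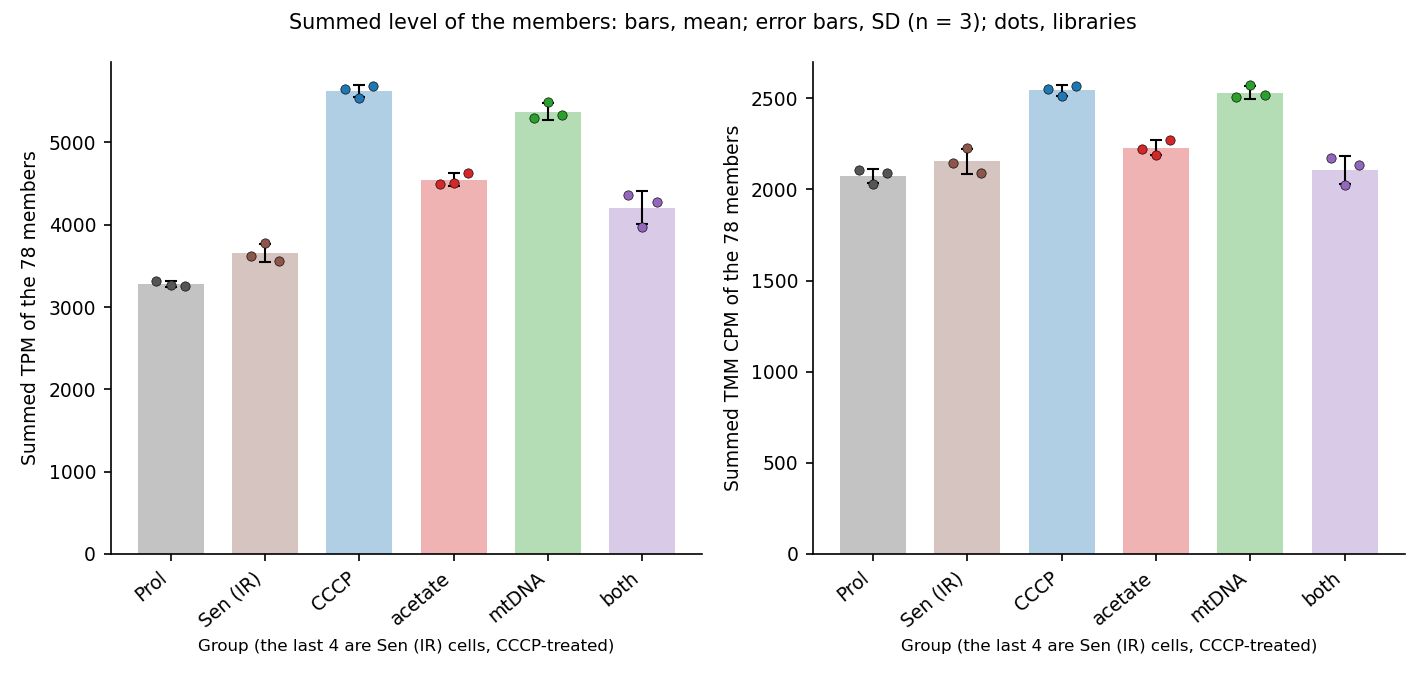
Summed level of the 78 members in each of the 18 libraries, in TPM (left axis panel) and in TMM-scaled CPM (right axis panel). Bars are means, error bars SD (n = 3), dots libraries. Sen (IR) + CCCP (5626 TPM) and its mtDNA group (5376 TPM) are highest on both scales, and the acetate groups lie between these and the cells without CCCP in TPM.

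Single members differed widely in level and little in their change. In Prol, the mean level ran from 3.11 TPM for MRPL23 to 144 TPM for MRPL51, with a median of 33.5 TPM, and MRPS10, MRPL15 and MRPL18 followed MRPL51. The ratio of the highest to the lowest group mean in CPM had a median of 1.46 over the members, a range from 1.12 to 3.06, and was 2 or more for 6 members. The mean was highest in Sen (IR) + CCCP for 25 members and in its mtDNA group for 22, on the CPM scale. Only 1 member was highest with the combination. In TPM, 51 members were highest in Sen (IR) + CCCP and 49 lowest in Prol. In all, 71 members passed an adjusted p of 0.05 in at least 1 of 7 comparisons of 2 groups (edgeR's quasi-likelihood test), a share no higher than the 91.4% of all genes tested that did so. The 7 that passed in none were MRPL23, MRPL28, MRPL36, MRPL41, MRPS11, MRPS17 and MRPS36.

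**Figure D2:**
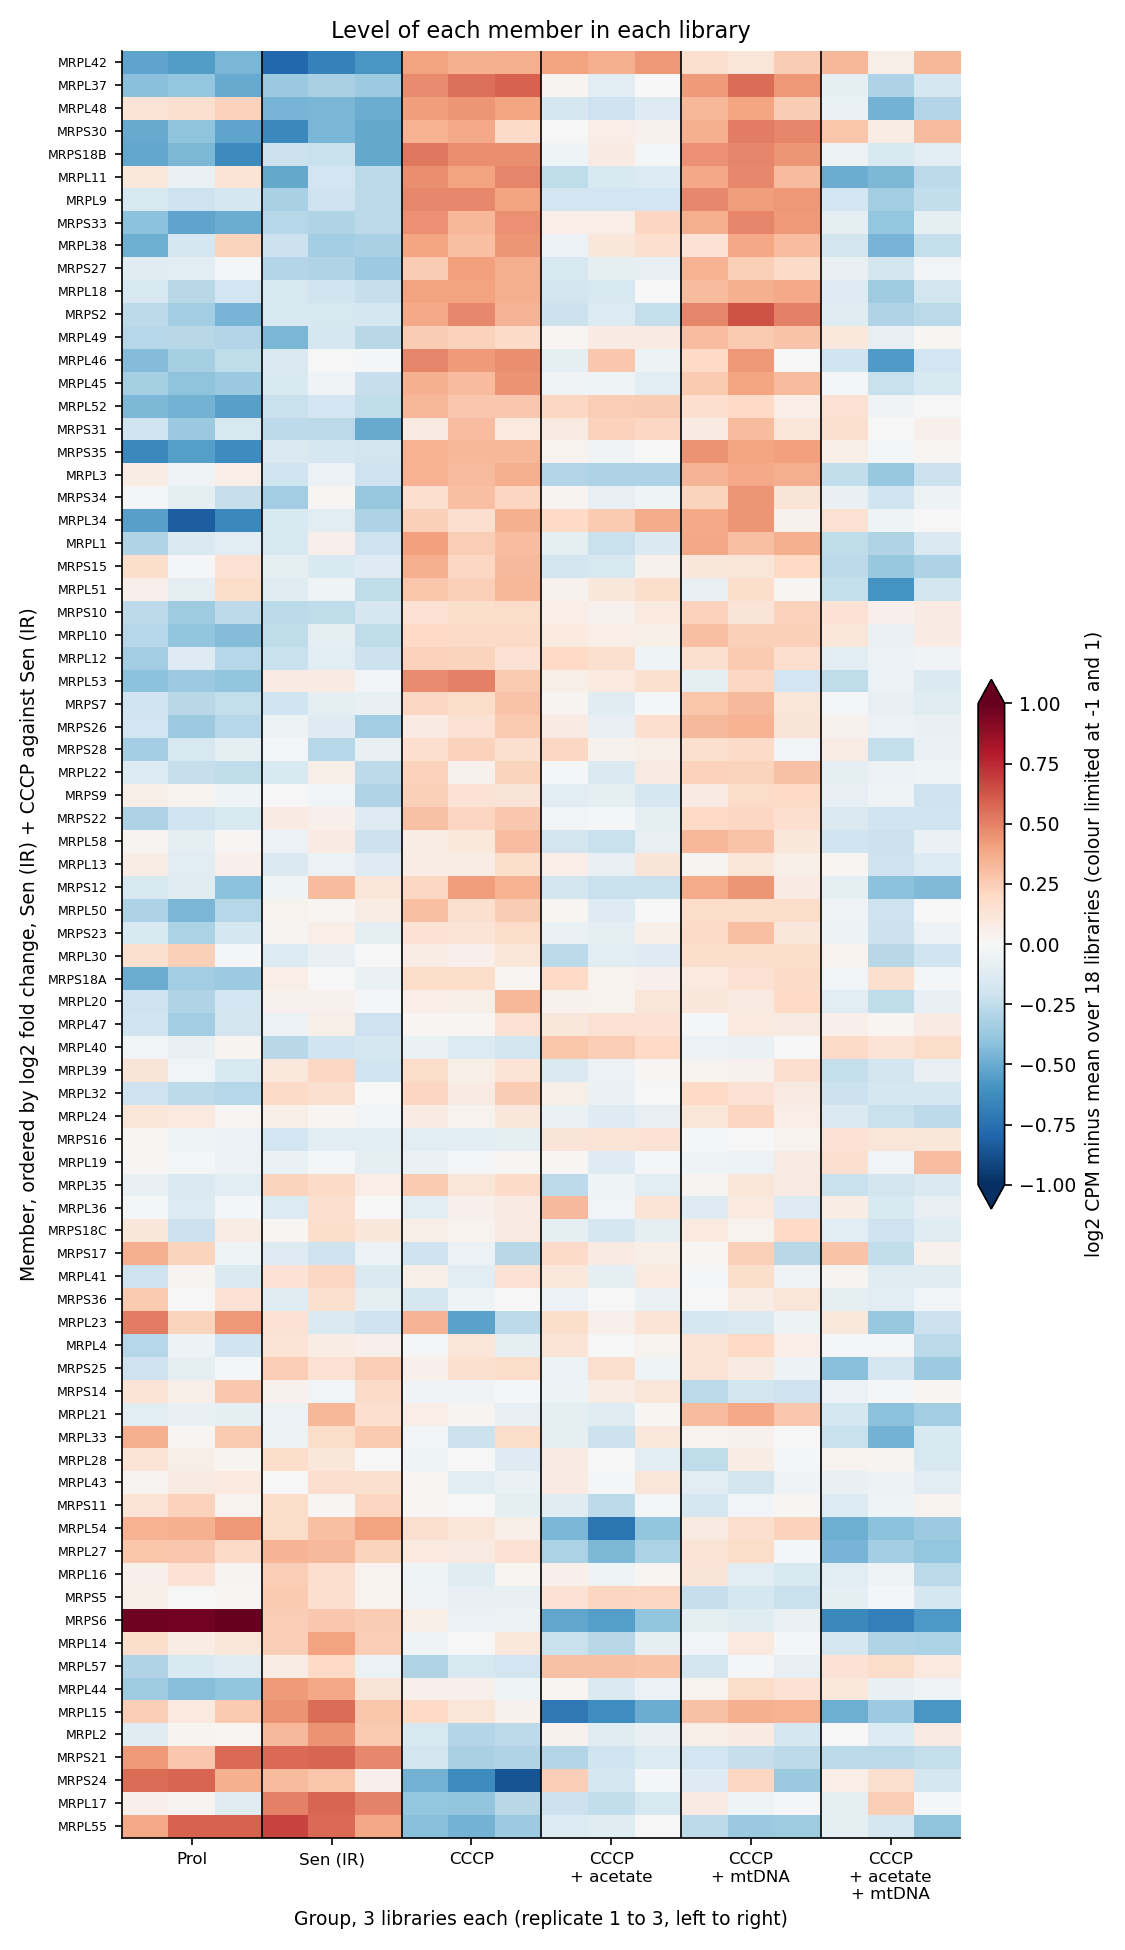
Each of the 78 members (vertical axis) in each of the 18 libraries (horizontal axis, by group), as log2 CPM minus the member's mean over all libraries, with colour limited at -1 and 1. Members are ordered by their log2 fold change in Sen (IR) + CCCP against Sen (IR), from 1.05 for MRPL42 at the top to -0.98 for MRPL55 at the bottom. The libraries of Sen (IR) + CCCP and of its mtDNA group share a block of higher values in the upper part, which is paler with acetate.

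The promoters of the members were compared with those of other genes in sequence from RefSeq (GRCh38.p14), 250 bases before to 50 bases after each start. An entry was found for 69 of 78 members. The motif CCGGAAG, a core bound by ETS factors such as GABP, was present on either strand in 29 of them (42.0%), against 10.7% of 27305 promoters in the table and 18.3% of the 11160 whose genes were tested. AAGATGGCG, the motif of YY1, was in 13 (18.8%), against 1.8% and 3.7%. The motif GCGCATGCG of NRF1, a regulator known for nuclear genes of mitochondria, was in 3 (4.3%), against 2.1% and 3.6%. Of the others searched, GGGCGG (SP1) was in 60.9% of members and 68.4% of tested genes, CCAAT in 29.0% and 36.4%, CACGTG (E-box) in 8.7% and 9.9%, and TATAAA in 2.9% and 6.1%. Matches of different motifs overlapped in 1 member promoter, between ETS and SP1. A match is a description of letters and not of binding.

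The 150 bases before the start are shown for 5 members that moved in different ways with CCCP or acetate, so that a shared motif can be set beside the values. Capitals mark the ETS motif (CCGGAAG or its reverse complement) or, in MRPL17, the NRF1 motif (GCGCATGCG, whose first match runs on both strands and is 1 base longer). The windows are, in order, chr11:73787724-73787873, plus strand, chr1:150293711-150293860, plus strand, chr22:19432395-19432544, plus strand, chr19:3762532-3762681, plus strand and chr11:6683341-6683490, minus strand.
MRPL48: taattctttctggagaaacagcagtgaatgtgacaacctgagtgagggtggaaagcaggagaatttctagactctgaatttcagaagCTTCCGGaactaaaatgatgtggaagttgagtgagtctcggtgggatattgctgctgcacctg
MRPS21: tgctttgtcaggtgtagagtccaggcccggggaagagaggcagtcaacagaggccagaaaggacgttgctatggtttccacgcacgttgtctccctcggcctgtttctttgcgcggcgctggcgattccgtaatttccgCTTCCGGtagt
MRPL40: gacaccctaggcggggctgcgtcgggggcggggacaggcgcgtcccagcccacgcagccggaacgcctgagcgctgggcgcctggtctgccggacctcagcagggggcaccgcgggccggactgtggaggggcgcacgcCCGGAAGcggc
MRPL54: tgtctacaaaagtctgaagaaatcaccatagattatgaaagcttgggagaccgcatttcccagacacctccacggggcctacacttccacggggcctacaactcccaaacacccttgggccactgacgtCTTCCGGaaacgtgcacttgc
MRPL17: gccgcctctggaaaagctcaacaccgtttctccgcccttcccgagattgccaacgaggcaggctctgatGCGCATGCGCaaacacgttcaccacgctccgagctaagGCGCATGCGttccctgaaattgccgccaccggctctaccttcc
The first 4 each carry 1 match to the ETS motif and were chosen after their values were seen. With CCCP MRPL48 was among the largest rises and MRPS21 among the largest falls. With acetate MRPL40 rose and MRPL54 fell, as described below. The examples were picked to differ, so they do not bear on the motif's part in the changes, which was not tested. MRPL17, with the NRF1 motif at 2 places, fell with CCCP. Over all members with a promoter, those with the ETS motif had 14 of 29 higher and 4 lower with CCCP (median log2 fold change 0.15), and those without it 21 of 40 higher and 8 lower (0.23). With the combination against mtDNA alone, 17 of 29 with the motif and 27 of 40 without it were lower, with medians of -0.29 and -0.27. In these comparisons 34.0% of all genes tested were higher and 31.3% lower with CCCP, and 29.9% were lower with the combination. The YY1 motif marked members of which 9 of 13 were higher and 1 lower with CCCP (median 0.39), against 26 of 56 higher and 11 lower without it (0.14). These splits were not tested.

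Another shared feature was a neighbour on the other strand. For 27 of 78 members (34.6%), a protein-coding gene on the opposite strand began within 1000 bases, against 17.4% of the 13466 protein-coding genes tested and 13.4% of all 20033 in GENCODE v44. MRPL46 and MRPS11 (chr15:88459477-88467390, minus strand, and chr15:88467453-88480776, plus strand, GRCh38) are a pair of members that start 63 bases apart. MRPL46, a protein of the large subunit, measured 7.70, 8.48 and 8.40 CPM in Sen (IR), 11.9, 11.4 and 11.7 in Sen (IR) + CCCP and 7.94, 10.2 and 8.18 with acetate. It rose with CCCP (log2 fold change 0.52 ± 0.11 (SE), adjusted p = 4.05e-04) and fell with acetate (log2 fold change -0.40 ± 0.11 (SE), adjusted p = 0.00348). MRPS11, of the small subunit, measured 19.8, 17.6 and 20.3 CPM in Sen (IR), 17.6, 17.5 and 16.4 with CCCP and 16.1, 14.6 and 17.3 with acetate and passed the test in neither (-0.17 and -0.10). The groups of MRPL46 did not overlap in either step and those of MRPS11 overlapped in both. With TPM, however, MRPS11 was higher with CCCP (0.25, adjusted p = 0.0121 with limma). MRPL57 starts 106 bases from SKA3, a spindle and kinetochore gene, and the pair moved in opposite directions with TMM. With CCCP the log2 fold change was -0.29 for MRPL57 and 1.66 for SKA3 (adjusted p = 1.54e-11), and with acetate 0.51 and -3.03 (adjusted p = 8.85e-15). The fall of MRPL57 with CCCP missed the threshold under 2 of 27 alternatives, 1 of them TPM, where it was positive (0.13). Both pairs described here were chosen after their values were seen. Other neighbours moved in the same direction in both steps, such as MRPS18B and PPP1R10, and the pairs were not tested as a set.

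The first comparison, Sen (IR) against Prol, addresses what senescence does to these genes while mitochondria are present. Of 78 members, 28 were higher and 10 lower at an adjusted p of 0.05, where 26.7% of all genes tested were higher and 29.9% lower. The median log2 fold change was 0.07 over the members and -0.01 over all genes. With library totals alone, 37 were higher and 4 lower. Without replicate 2 of Sen (IR) only 15 were higher and 14 lower, with a median of 0.03, and without replicate 3, which stands apart, 26 and 10. Most changes were small, and 3 of the 38 called members passed 1.5-fold, against 44.9% of all genes called.

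Here and in the comparisons below, the largest rises and falls are named only among called members whose groups do not overlap. Their separation is thus a condition of the choice and adds no support to the calls. Among the members that rose, MRPL44 changed most. Its product belongs to the large subunit, resembles an RNase III and is mutated in an infantile cardiomyopathy. It measured 29.3, 28.01 and 28.6 CPM in Prol and 50.3, 49.01 and 40.9 in Sen (IR), so every Sen (IR) library was above every Prol library (log2 fold change 0.71 ± 0.07 (SE), adjusted p = 1.98e-08). An antisense lncRNA covers 13.3% of its exon bases. MRPL17, a conserved protein near the exit of the polypeptide tunnel, went from 39.1, 38.5 and 34.7 CPM in Prol to 53.3, 56.5 and 53.04 in Sen (IR) (log2 fold change 0.54 ± 0.07 (SE), adjusted p = 1.12e-06). MRPL34 had 10.4, 8.55 and 9.66 CPM in Prol and 13.6, 13.998 and 12.2 in Sen (IR) (log2 fold change 0.48 ± 0.10 (SE), adjusted p = 4.17e-04). MRPS35, of the small subunit, had 48.9, 52.2 and 49.4 CPM in Prol and 69.1, 68.2 and 67.3 in Sen (IR) (log2 fold change 0.44 ± 0.04 (SE), adjusted p = 9.59e-09). In these 3 the groups did not overlap either.

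The largest fall was in MRPS6, a conserved protein of the small subunit, from 70.2, 69.9 and 71.9 CPM in Prol to 42.5, 43.1 and 42.7 in Sen (IR) (log2 fold change -0.73 ± 0.05 (SE), adjusted p = 5.70e-11). MRPS6 shares 265 exon bases on the same strand with SLC5A3, the myo-inositol transporter gene inside its locus, and SLC5A3 fell as well (log2 fold change -1.22 ± 0.05, adjusted p = 3.87e-14). How much of the one gene's reads went to the other was not tested. MRPL48, of the large subunit, measured 11.9, 12.1 and 12.7 CPM in Prol and 7.84, 7.90 and 7.68 in Sen (IR) (log2 fold change -0.65 ± 0.09 (SE), adjusted p = 1.10e-06). MRPL11, whose bacterial homologue lies at the GTPase centre, measured 14.5, 12.9 and 14.8 CPM in Prol and 9.48, 11.9 and 11.2 in Sen (IR) (log2 fold change -0.39 ± 0.09 (SE), adjusted p = 6.54e-04). For MRPS27 the values were 44.9, 45.2 and 48.4 CPM in Prol and 39.9, 39.7 and 37.9 in Sen (IR) (log2 fold change -0.24 ± 0.06 (SE), adjusted p = 0.00127). The Prol libraries were above the Sen (IR) libraries in all 4.

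Other genes of mitochondrial translation are given from lists for Sen (IR) against Prol, where 26.7% of all genes tested were higher and 29.9% lower. Of 26 assembly factors 4 were higher and 4 lower (median log2 fold change 0.02), with MPV17L2 at 0.91 and METTL17 at -0.41. Of 16 translation factors 6 were higher and 3 lower, led by TUFM, the mitochondrial elongation factor Tu, at 0.64. Of 20 mitochondrial aminoacyl-tRNA synthetases and related enzymes 4 were higher and 6 lower. Of the 77 proteins of the cytosolic ribosome 74 were lower and 0 higher, with a median of -0.70. Of 75 nuclear-encoded respiratory chain subunits 12 were higher and 22 lower (median -0.06). Without replicate 3 of Sen (IR) the respiratory chain subunits had 14 higher and 22 lower, and no other of these counts moved by more than 1.

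With CCCP, after which the share of mtDNA-encoded messages had fallen as given above, more members rose than in any other comparison. In Sen (IR) + CCCP against Sen (IR), 38 members were higher and 14 lower, where 34.0% of all genes tested were higher and 31.3% lower. The median log2 fold change was 0.15 over the members and 0.03 over all genes. With library totals alone 54 were higher and 5 lower, and on log2(TPM + 1) with limma 68 and 4, with medians over all genes of 0.29 and 0.35. The 38 higher members kept their sign under every alternative. Of the 14 lower members only 5 did so (MRPL55, MRPL17, MRPS24, MRPS21 and MRPL2), and 9 turned positive with TPM, 4 of which did so with library totals too. Both scalings raise the median of all genes, so a rise tends to keep its sign and a small fall to lose it. The members' median less that of all genes was 0.1236 with TMM, 0.1239 with library totals and 0.2075 with TPM. Without replicate 3 of Sen (IR), 36 were higher and 14 lower.

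**Figure D3:**
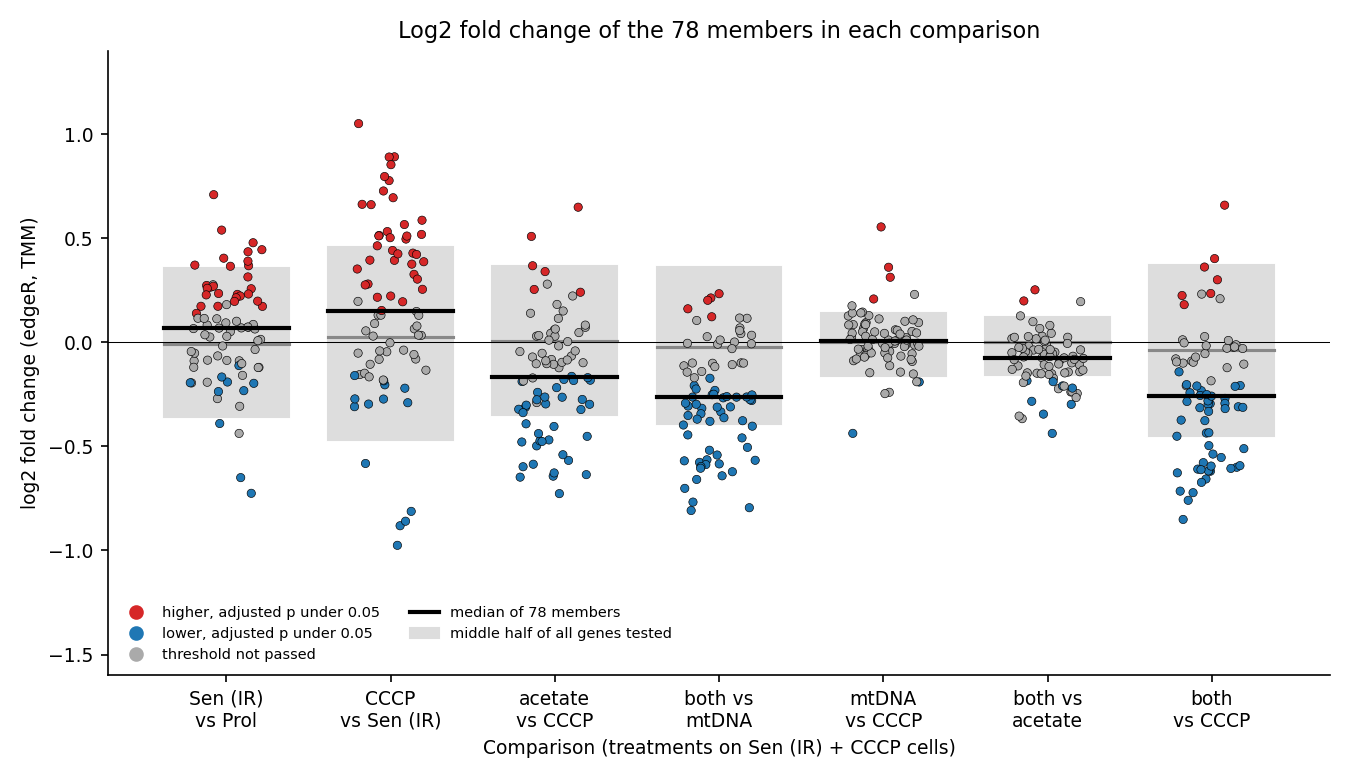
Log2 fold change (vertical axis) of the 78 members in each of 7 comparisons of 2 groups, with red for higher and blue for lower at an adjusted p under 0.05, black bars for the members' median and grey boxes for the quartile range of all genes tested. In Sen (IR) + CCCP against Sen (IR) the median is 0.15, and in both acetate comparisons most members lie below 0, with medians of -0.17 and -0.26.

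The largest rise with CCCP was in MRPL42, a large-subunit protein that bacteria lack. It measured 63.02, 67.996 and 72.4 CPM in Sen (IR) and 143, 138 and 139 in Sen (IR) + CCCP (log2 fold change 1.05 ± 0.06 (SE), adjusted p = 3.60e-12). Levels in all CCCP-treated groups stayed above those in Sen (IR), with 113 CPM as the lowest of these libraries. MRPL37 rose from 42.8, 44.1 and 43.03 CPM in Sen (IR) to 76.7, 80.9 and 83.3 with CCCP (log2 fold change 0.89 ± 0.06 (SE), adjusted p = 1.12e-11). MRPL48, which had fallen in senescence, went from 7.84, 7.90 and 7.68 CPM in Sen (IR) to 14.5, 14.7 and 14.2 with CCCP (log2 fold change 0.89 ± 0.08 (SE), adjusted p = 3.97e-09), above its level in Prol. MRPS30, a large-subunit protein with a name of the small subunit, measured 21.3, 24.2 and 23.3 CPM in Sen (IR) and 42.3, 43.3 and 38.05 with CCCP (log2 fold change 0.85 ± 0.07 (SE), adjusted p = 4.63e-10). No Sen (IR) library reached the lowest Sen (IR) + CCCP library in any of these 4.

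MRPL55, which bacteria lack, fell most. It had 8.52, 7.90 and 6.95 CPM in Sen (IR) and 3.98, 3.84 and 4.13 in Sen (IR) + CCCP (log2 fold change -0.98 ± 0.11 (SE), adjusted p = 4.61e-08). MRPL17 lost its rise of senescence and more, from 53.3, 56.5 and 53.04 CPM in Sen (IR) to 28.8, 28.6 and 31.05 with CCCP (log2 fold change -0.88 ± 0.07 (SE), adjusted p = 3.66e-10). MRPS24, the homologue of bacterial S3, was low in every library, at 4.53, 4.41 and 3.75 CPM in Sen (IR) and 2.62, 2.35 and 1.99 with CCCP (log2 fold change -0.86 ± 0.16 (SE), adjusted p = 6.40e-05). A readthrough gene with its own entry, URGCP-MRPS24, shares 606 of its exon bases. MRPS21, a conserved small-subunit protein, measured 47.9, 48.4 and 45.1 CPM in Sen (IR) and 28.4, 25.8 and 26.3 with CCCP (log2 fold change -0.81 ± 0.07 (SE), adjusted p = 3.05e-10). Its groups were far apart, as were those of the other 3, and all 4 kept their sign under every alternative.

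**Figure D4:**
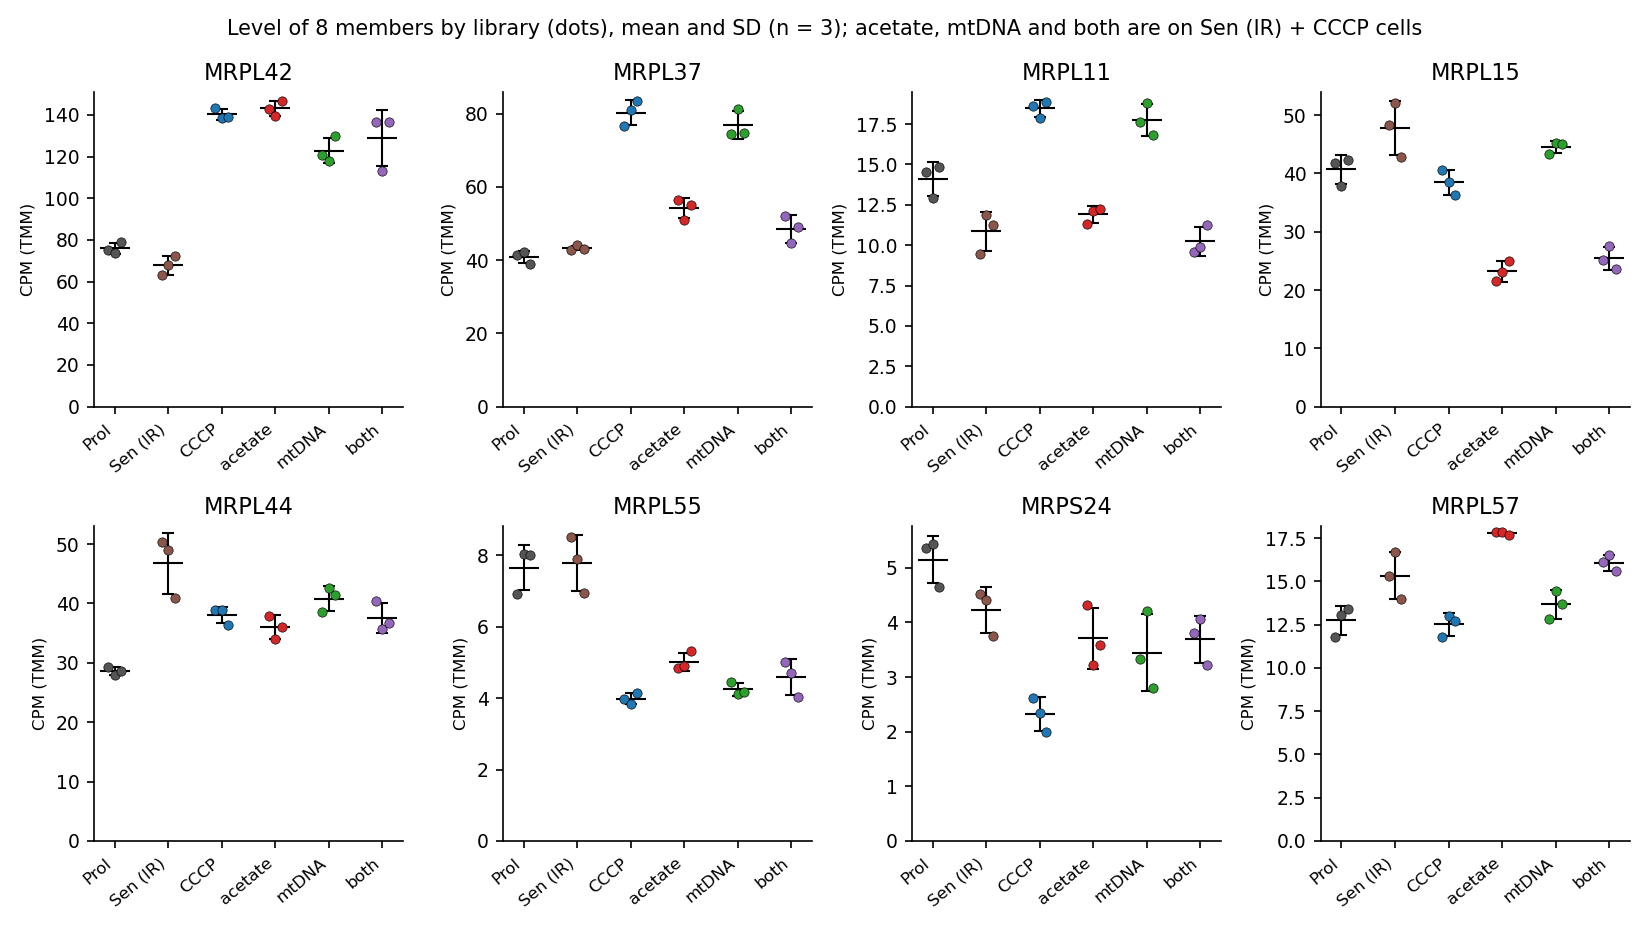
Level of 8 members in CPM (vertical axis) in the 6 groups (horizontal axis), with dots for libraries, dashes for the mean and error bars for SD (n = 3). MRPL42 and MRPL37 are about as high with CCCP as anywhere, MRPL37, MRPL11 and MRPL15 are lower with acetate, and MRPL55 and MRPS24 are lowest in Sen (IR) + CCCP.

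The members were also divided by origin. The classes follow the number in the gene symbol, with a few exceptions, from general knowledge and not from a file. This counted 47 members as having a bacterial homologue and 30 as having none, leaving out MRPS36. Without a homologue 21 of 30 were higher and 4 lower with CCCP (median log2 fold change 0.40), and with one 17 of 47 were higher and 10 lower (median 0.05). The latter are 36.2% higher and 21.3% lower, where 34.0% of all genes tested were higher and 31.3% lower (median 0.03). By subunit, 23 of 51 large-subunit members were higher and 10 lower (median 0.13), and 15 of 26 small-subunit members were higher and 4 lower (median 0.26). Without replicate 3 of Sen (IR) the members without a homologue had 19 higher and 3 lower, and those with one 17 and 11. The differences between these classes were not tested. In Sen (IR) against Prol the medians of the members with and without a homologue were 0.07 and 0.08.

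Of the other genes of mitochondrial translation, 20 of 26 assembly factors were higher and 1 lower with CCCP (median 0.34). Of all genes tested 34.0% were higher and 31.3% lower. The largest rise was in MRM3, which methylates the large rRNA (0.93 ± 0.08, adjusted p = 1.39e-09), and the 1 fall in MALSU1, which keeps the subunits apart during assembly (-0.38 ± 0.09, adjusted p = 0.00112). Among 16 translation factors 7 were higher, led by the initiation factor MTIF2 (1.02 ± 0.07), and 3 lower, led by GFM2 (-0.44 ± 0.05). Of 20 aminoacyl-tRNA synthetases and related enzymes 10 were higher and 2 lower, from QRSL1, a subunit of the glutamyl-tRNA amidotransferase (1.35 ± 0.07), to RARS2 (-1.57 ± 0.06). The 5 mitoribosomal proteins with other names had 2 lower, with AURKAIP1 at -0.55. Cytosolic ribosomal proteins had 10 of 77 higher and 44 lower (median -0.24), and respiratory chain subunits 14 of 75 higher and 35 lower (median -0.17). Without replicate 3 of Sen (IR) there were 18 assembly factors higher and 1 lower, 15 cytosolic ribosomal proteins higher and 44 lower, and 12 respiratory chain subunits higher and 38 lower. The mitochondrial rRNAs were not analysed here.

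With acetate, most called members fell. In Sen (IR) + CCCP + acetate against Sen (IR) + CCCP, 37 members were lower and 6 higher, where 28.3% of all genes tested were lower and 28.8% higher. The median log2 fold change was -0.17 over the members and 0.01 over all genes, and with library totals alone 50 were lower and 5 higher, with a median over all genes of -0.12. Of the 43 called members 8 passed 1.5-fold (18.6%), against 45.0% of all genes called. Without replicate 2 of the acetate group 28 were lower and 8 higher. The leukocyte genes moved with acetate, from a sum of 2.09 ± 0.164 TPM in Sen (IR) + CCCP to 5.10 ± 0.192 with acetate (SD, n = 3), and their part in the result was not tested.

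MRPL15 fell most. This conserved large-subunit protein measured 40.7, 38.5 and 36.4 CPM in Sen (IR) + CCCP and 21.6, 23.03 and 25.04 with acetate (log2 fold change -0.73 ± 0.07 (SE), adjusted p = 2.27e-08), below all libraries of Prol and Sen (IR) too. MRPL9 measured 50.3, 50.2 and 47.6 CPM with CCCP and 31.6, 31.6 and 31.4 with acetate (log2 fold change -0.65 ± 0.05 (SE), adjusted p = 2.48e-10), and genes on the other strand cover 30.5% of its exon bases. MRPL3, a conserved large-subunit protein mutated in a cardiomyopathy, had 92.04, 90.2 and 92.96 CPM with CCCP and 59.2, 58.3 and 58.6 with acetate (log2 fold change -0.64 ± 0.05 (SE), adjusted p = 3.30e-10). MRPL54 had 10.9, 10.6 and 10.2 CPM with CCCP and 7.12, 5.90 and 7.47 with acetate (log2 fold change -0.64 ± 0.09 (SE), adjusted p = 2.44e-06). In each of the 4, every acetate library was below every Sen (IR) + CCCP library. MRPL9 (0.73) and MRPL3 (0.50) had risen with CCCP, MRPL15 had fallen (-0.31, positive with TPM), and MRPL54 had not passed the test (-0.18).

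The 6 members that rose with acetate were 3 with a bacterial homologue and 3 without. MRPS24 went from 2.62, 2.35 and 1.99 CPM with CCCP to 4.32, 3.21 and 3.59 with acetate (log2 fold change 0.65 ± 0.16 (SE), adjusted p = 0.00138). MRPL57, a small large-subunit protein that bacteria lack, measured 11.8, 13.02 and 12.7 CPM with CCCP and 17.9, 17.8 and 17.7 with acetate, a tight rise in all libraries (log2 fold change 0.51 ± 0.07 (SE), adjusted p = 3.67e-06). MRPL40 measured 17.7, 16.8 and 16.3 CPM with CCCP and 22.5, 22.02 and 21.3 with acetate (log2 fold change 0.37 ± 0.06 (SE), adjusted p = 1.22e-05). MRPL55 measured 3.98, 3.84 and 4.13 CPM with CCCP and 4.84, 4.91 and 5.31 with acetate (log2 fold change 0.34 ± 0.11 (SE), adjusted p = 0.0112), a call that was lost with library totals alone. The groups did not overlap in these 4. MRPS5 (0.25 ± 0.05) and MRPS16 (0.24 ± 0.04) were the other two.

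The effect of acetate was measured again in separate libraries, as the combination against mtDNA alone. There 49 members were lower and 5 higher, where 29.9% of all genes tested were lower and 27.4% higher. The median log2 fold change was -0.26 over the members and -0.02 over all genes. Of the 37 members lower with acetate alone 36 were lower here too (97.3%), which is 73.5% of the 49. Of the 6 higher 3 were higher again, and no member was called in opposite directions. The log2 fold changes of the 2 comparisons, which share no library, had a Pearson correlation of 0.90 (Spearman 0.89) across the 78 members, and 66 had the same sign. Members are not independent replicates. The same overlap and correlation were not computed over all genes tested, so these values do not set the members apart from other genes. Without replicate 2 of the combination, which stands apart, 43 were lower and 6 higher, with a median of -0.23, 35 of the 37 lower with acetate alone were lower here too, and the Pearson correlation was 0.88. The leukocyte genes summed to 2.15 ± 0.357 TPM with mtDNA and 4.31 ± 0.934 with the combination, and their part was not tested here either.

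**Figure D5:**
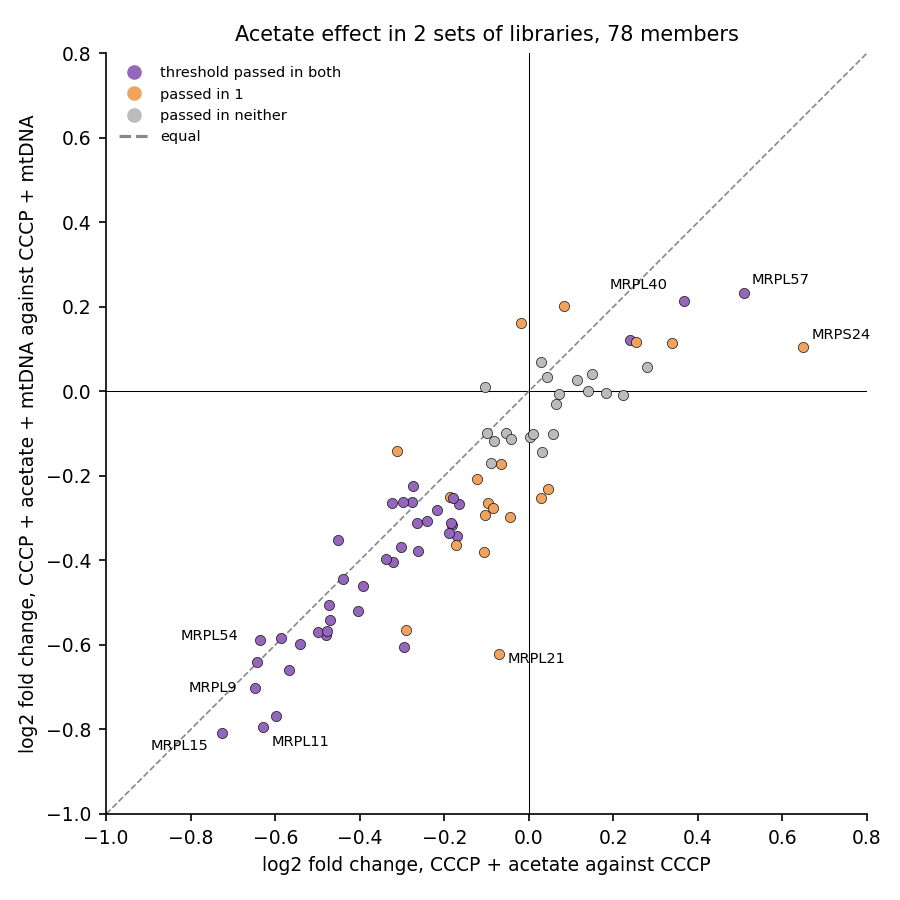
Log2 fold change with acetate in cells without mtDNA (horizontal axis) and with mtDNA (vertical axis) for each of the 78 members, from libraries that do not overlap. Purple dots passed the test in both, orange in 1 and grey in neither. The dots follow the dashed line of equal change or lie somewhat below it (Pearson 0.90), and MRPS24 and MRPL21 lie far below it.

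MRPL15 again fell most, from 43.3, 45.2 and 44.99 CPM with mtDNA to 25.2, 27.5 and 23.7 with the combination (log2 fold change -0.81 ± 0.07 (SE), adjusted p = 5.87e-09). MRPL11 went from 17.6, 18.8 and 16.8 CPM with mtDNA to 9.58, 9.87 and 11.3 with the combination (log2 fold change -0.79 ± 0.09 (SE), adjusted p = 8.30e-08), and MRPS2, a conserved small-subunit protein, from 19.9, 22.01 and 20.1 CPM with mtDNA to 13.04, 11.5 and 11.7 with the combination (log2 fold change -0.77 ± 0.07 (SE), adjusted p = 9.85e-09). MRPL9 measured 50.2, 48.1 and 48.5 CPM with mtDNA and 31.5, 28.3 and 30.3 with the combination (log2 fold change -0.70 ± 0.05 (SE), adjusted p = 1.12e-10). The combination was below mtDNA alone in every library of the 4. MRPS24, the largest rise with acetate alone, did not pass here (log2 fold change 0.10 ± 0.16 (SE), adjusted p = 0.600), and its groups overlapped. The rises were small: MRPL57 had 0.23 ± 0.08, MRPL40 0.21 ± 0.06, MRPS14 0.20 ± 0.07 and MRPS16 0.12 ± 0.04, and with library totals alone 0 members were higher and 57 lower. MRPL21 went from 10.4, 10.9 and 10.1 CPM with mtDNA to 7.43, 6.31 and 6.58 with the combination (log2 fold change -0.62 ± 0.10 (SE), adjusted p = 1.07e-05), against -0.07 for acetate alone, a difference whose test is given with the interaction.

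The rise with CCCP and the fall with acetate can be set side by side over libraries that the 2 comparisons do not share. Of the 38 members higher with CCCP, 32 were lower with the combination against mtDNA alone (84.2%, and 65.3% of the 49 lower there). Over all genes tested the share was 46.9% of 5776 genes, and 53.3% of 5084. Whatever their call with CCCP, 62.8% of the members and 29.9% of all genes tested were lower with the combination against mtDNA alone. Of the 14 lower with CCCP 1 was higher and 4 were lower with acetate. The log2 fold changes had a Pearson correlation of -0.49 over the 78 members (Spearman -0.48) and -0.32 over all genes. With replicate 2 of the combination left out, 30 of 41 members were lower (73.2%), against 41.7% of all genes, and the correlations were -0.41 and -0.23. Without replicate 3 of Sen (IR) 31 of 36 were lower (86.1%), against 47.1%. Whether the members differ from other genes in this was not tested.

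The other lists are given for Sen (IR) + CCCP + acetate against Sen (IR) + CCCP, where 28.3% of all genes tested were lower and 28.8% higher. Of 26 assembly factors 16 were lower and 3 higher (median -0.25), and RCC1L, which is needed for rRNA modification and subunit assembly, fell most (-0.89 ± 0.05, adjusted p = 9.14e-13, and -0.92 ± 0.05 in the presence of mtDNA). Of 16 translation factors 8 were lower, led by LRPPRC, an mRNA stability factor (-0.37 ± 0.04), and 3 higher. Of 20 aminoacyl-tRNA synthetases and related enzymes 11 were lower and 4 higher, from SARS2 (-1.61 ± 0.26) to MARS2 (0.46 ± 0.09). SARS2 starts 181 bases from MRPS12 on the other strand. MRPS12, the homologue of bacterial S12 at the decoding centre, measured 8.44, 9.77 and 9.28 CPM without and 6.42, 6.25 and 6.25 with acetate and fell as well (log2 fold change -0.54 ± 0.12 (SE), adjusted p = 4.06e-04). Cytosolic ribosomal proteins had 24 of 77 lower and 10 higher (median -0.01). Respiratory chain subunits had 13 of 75 lower and 24 higher (median 0.02).

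Transfected mtDNA moved few members. No group was labelled as given the transfection reagent without mtDNA, so in every comparison of mtDNA its effect and that of transfection cannot be told apart. In Sen (IR) + CCCP + mtDNA against Sen (IR) + CCCP, 4 were higher and 2 lower, where 10.7% of all genes tested were higher and 7.40% lower, and the median was 0.01. MRPS24 had 2.62, 2.35 and 1.99 CPM with CCCP and 3.32, 4.20 and 2.81 with mtDNA (log2 fold change 0.55 ± 0.17 (SE), adjusted p = 0.0232). MRPL17 had 28.8, 28.6 and 31.05 CPM with CCCP and 39.8, 36.5 and 37.1 with mtDNA (log2 fold change 0.36 ± 0.07 (SE), adjusted p = 0.00118), and its call alone held under every alternative. MRPL21 (0.31 ± 0.09) and MRPL15 (0.21 ± 0.07) were the other two that rose. MRPL53 fell, from 6.32, 6.48 and 5.48 CPM with CCCP to 4.30, 5.28 and 4.002 with mtDNA (log2 fold change -0.44 ± 0.11 (SE), adjusted p = 0.00771), though CCDC142 shares 499 of its 685 exon bases on the same strand. MRPL42 fell slightly (log2 fold change -0.19 ± 0.06 (SE), adjusted p = 0.0381). With library totals alone 2 were higher and 8 lower.

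In cells that also had acetate, mtDNA left 2 members higher and 8 lower against acetate alone, where 6.57% of all genes tested were higher and 6.0% lower, with a median of -0.08. With library totals alone 0 were higher and 14 lower, and with DESeq2's size factors 3 and 4. MRPL51, a large-subunit protein, had 59.1, 61.9 and 64.7 CPM with acetate and 48.5, 37.8 and 50.5 with the combination (log2 fold change -0.44 ± 0.09 (SE), adjusted p = 0.00184). MRPS25 had 19.8, 23.1 and 20.1 CPM with acetate and 15.4, 18.3 and 16.1 with the combination (log2 fold change -0.35 ± 0.08 (SE), adjusted p = 0.00560), and NR2C2 on the other strand, at log2 fold change 0.04, shares 7157 of its exon bases. MRPS33 (-0.30 ± 0.07) and MRPS5 (-0.28 ± 0.05) fell too, and MRPL17 rose (0.25 ± 0.07). The lowest values of MRPL51 and MRPS33 came from replicate 2 of the combination. Without that library 2 members were higher and 4 lower. Of the 2 comparisons of mtDNA, which share no library, 1 member was called higher in both (MRPL17) and 0 lower in both. When replicate 2 of the combination was left out, 0 were higher in both and 2 lower.

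Whether acetate and mtDNA act independently was tested by their interaction, as the mtDNA effect in acetate-treated cells less the mtDNA effect in cells without acetate. By edgeR's quasi-likelihood test 0 members were higher and 0 lower, where 0.0765% of all genes tested were higher and 0.583% lower. At an unadjusted p of 0.05 there were 8 of 78 members, beside 1938 of all 16994 genes tested. DESeq2's Wald test called 1 member lower. The median interaction was -0.09 over the members and -0.02 over all genes. MRPL21 came nearest (-0.55 ± 0.13, adjusted p = 0.0679), and MRPS24 had -0.54 ± 0.23 (adjusted p = 0.345). Without replicate 2 of the combination 0 were higher and 0 lower, where 0.411% of all genes were higher and 1.89% lower. The members' median was then -0.07.

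Against Sen (IR) + CCCP, with which the comparisons of acetate and of mtDNA share their control libraries, the combination had 48 members lower and 7 higher, where 31.4% of all genes tested were lower and 30.3% higher, and a median of -0.26 against -0.04 for all genes. Without replicate 2 of the combination there were 41 lower and 8 higher. The largest falls were in MRPL11 (-0.85 ± 0.09), MRPL46 (-0.76 ± 0.12), MRPL37 (-0.72 ± 0.06) and MRPL9 (-0.72 ± 0.05), and the largest rises in MRPS24 (0.66 ± 0.16), MRPL17 (0.40 ± 0.07), MRPL57 (0.36 ± 0.08) and MRPL40 (0.30 ± 0.06). Beside these, acetate alone gave -0.63, -0.40, -0.57 and -0.65 for the first 4 and mtDNA alone -0.06, -0.24, -0.06 and -0.01. For MRPL17, acetate alone gave 0.15 and mtDNA alone 0.36.

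Members of particular role are given whatever their change. MRPL12, whose product forms the flexible stalk that recruits translation factors and also binds the mitochondrial RNA polymerase, measured 9.22, 9.93 and 9.26 CPM in Sen (IR), 12.6, 12.5 and 11.9 with CCCP and 12.4, 12.02 and 10.4 with acetate. It rose with CCCP (log2 fold change 0.39 ± 0.08 (SE), adjusted p = 2.28e-04), and another gene entry on the same strand covers 69.5% of its exon bases. MRPL58, a peptidyl-tRNA hydrolase within the large subunit, measured 13.7, 15.1 and 12.3 CPM in Sen (IR), 15.02, 15.4 and 17.7 with CCCP and 12.6, 12.2 and 13.5 with acetate, and it rose with CCCP (0.22), where its groups overlapped, and fell with acetate (-0.32). MRPS22, a small-subunit protein mutated in a fatal infantile disorder, measured 48.99, 48.01 and 42.3, 56.7, 53.8 and 55.9 CPM with CCCP and 45.4, 45.9 and 43.6 with acetate. It rose with CCCP (log2 fold change 0.25 ± 0.05 (SE), adjusted p = 2.96e-04) and fell with acetate (log2 fold change -0.30 ± 0.05 (SE), adjusted p = 5.28e-05), while COPB2, which shares 6378 of its exon bases on the other strand, moved the other way in both (-1.09 and 0.23). MRPS16, likewise a disease gene, changed by 0.03 with CCCP and 0.24 with acetate.

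The 3 homologues of bacterial S18 did not move alike in their calls. MRPS18A, which sits in the large subunit, rose in senescence (log2 fold change 0.40 ± 0.08 (SE), adjusted p = 1.70e-04) from 9.42, 10.4 and 10.3 CPM in Prol to 13.9, 13.3 and 12.7 in Sen (IR) and passed no test after that. MRPS18B, of the small subunit, measured 35.8, 35.7 and 29.3 CPM in Sen (IR), 60.1, 57.5 and 57.7 with CCCP and 40.5, 44.1 and 41.3 with acetate. It rose with CCCP (log2 fold change 0.80 ± 0.07 (SE), adjusted p = 4.27e-10) and fell with acetate (log2 fold change -0.48 ± 0.06 (SE), adjusted p = 1.28e-06). MRPS18C measured 21.2, 23.6 and 22.7 CPM in Sen (IR), 21.8, 21.5 and 22.3 with CCCP and 19.7, 18.6 and 19.7 with acetate. It passed the test with acetate (log2 fold change -0.18 ± 0.07 (SE), adjusted p = 0.0436) but not with CCCP (-0.04). The acetate call was lost under 16 of 27 alternatives, and with CCCP it was higher with library totals (0.22, adjusted p = 0.0141) and with TPM (0.37, adjusted p = 0.000217 with limma). The differences between the 3 genes were not tested.

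MRPL36, MRPL41 and MRPS36 passed no test. MRPL36, a small conserved large-subunit protein, ranged from 20.8 to 29.1 CPM over the 18 libraries with groups that overlapped throughout. MRPL41, a large-subunit protein, ranged from 10.2 to 13.6 CPM. MRPS36 reached 26.9 CPM at most. None of their 7 comparisons passed the test with TMM, although with TPM their log2 fold changes with CCCP were 0.42, 0.38 and 0.37 and passed it. By subunit, the large-subunit members summed to 2195 ± 20.5 TPM and the small to 1026 ± 9.43 in Prol, 3756 ± 70.3 and 1796 ± 7.52 in Sen (IR) + CCCP, and 3010 ± 62.1 and 1464 ± 20.6 with acetate (SD, n = 3).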

How the data were processed

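RNA-seq of polyadenylated RNA from 18 IMR90 libraries (6 groups of 3) was analysed. Per the study's methods and the submitters' processing notes, the authors used Trimmomatic 0.36 for trimming and STAR 2.5.2b for alignment (build GRCh38), and counted unique reads per gene with featureCounts of Subread 1.5.2. Strandedness is not given in the sources used here, so reads of genes that overlap on opposite strands may not be told apart. The deposited raw counts, whole numbers per gene, were tested. The deposited TPM values, scaled by the authors to gene length and to a fixed library sum, served for levels and as an alternative. Of the genes in the table, 485 carry no symbol.

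Counts were filtered with filterByExpr and scaled by TMM, and 1 model of 6 group means (12 residual degrees of freedom) was fitted with edgeR 4.0.16 in R 4.3.3. The quasi-likelihood test gave p-values, adjusted by Benjamini-Hochberg over all 16994 genes at a threshold of 0.05, and SE is the log2 fold change over the root of F. Alternatives used DESeq2 1.42.0, limma 3.58.1 on log2(TPM + 1), other scalings and filters, a replicate block, and each library left out. Per comparison the 4 largest rises and 4 largest falls among called members whose groups do not overlap are named, with members of particular role whatever their values and, for each list of related genes, its largest rise and fall. Neighbouring genes, MRPL46 with MRPS11, MRPL21 with acetate, and the 5 promoters shown were chosen after their values were seen. Members and lists were chosen with earlier results of these data known. Annotation is GENCODE v44, which matched 78 of 78 members by gene ID. Subunit classes were assigned from general knowledge of the proteins, and homologue classes from the numbers in the gene symbols with a few exceptions. Neither was checked against a file. The lowest member count in a library was 35, and counting error is a larger part of the spread for members of low count, such as MRPS24, than for the rest.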

Additional observations from a re-analysis of the deposited data

How the results depend on the processing

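The main limits are the scaling and the 3 libraries per group. Of 51 named values, 37 passed the threshold under all 9 other settings and all 18 omissions of 1 library, and 0 changed sign. With library totals alone, the members' median log2 fold change was 0.16 for Sen (IR) against Prol, 0.41 for CCCP, -0.29 for acetate, -0.060 for mtDNA, -0.43 for the combination against Sen (IR) + CCCP, -0.13 for it against acetate and -0.37 for it against mtDNA. With limma on log2(TPM + 1) these were 0.15, 0.56, -0.26, -0.063 and -0.39 for the first 5 and -0.32 for the last. The medians over all genes tested moved too. In the same order they were 0.08, 0.29, -0.12, -0.065, -0.21, -0.056 and -0.13 with library totals. With limma they were 0.05, 0.35, -0.07, -0.060 and -0.13 for the first 5 and -0.06 for the last. For acetate, the members' median less that of all genes was -0.1725 with TMM and -0.1728 with library totals. The cause of the shift was not tested. Under library totals the counts that moved by over 1.5 times were 4 lower for Sen (IR), 5 lower for CCCP, 2 higher and 8 lower for mtDNA, 3 higher for the combination against Sen (IR) + CCCP, 0 higher and 14 lower against acetate and 0 higher against mtDNA. With limma they were 4 lower for Sen (IR), 68 higher and 4 lower for CCCP, 2 higher and 7 lower for mtDNA, 0 higher for the combination against acetate and 2 higher against mtDNA. DESeq2's size factors and its Wald test each left 4 lower for the combination against acetate, and the Wald test 1 lower for the interaction. Without a filter there were 2 higher for mtDNA, 1 and 2 higher for the combination against acetate and mtDNA, and 1 lower for the interaction. With at least 10 counts in every library (13249 genes) there were 5 lower for mtDNA and 1 higher for the combination against acetate. With the compared groups alone there were 6 lower for Sen (IR), 6 lower for mtDNA, and 0 higher and 5 lower for the combination against acetate.

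Among members named in the text, with CCCP, library totals turned positive MRPL36 (0.26), MRPS18C (0.22), MRPS25 (0.18), MRPS36 (0.21) and MRPS5 (0.040), and for the combination against Sen (IR) + CCCP they turned MRPS21 negative (-0.17). With TPM and CCCP, the values were 0.12 for MRPL15, 0.27 for MRPL21, 0.42 for MRPL36, 0.38 for MRPL41, 0.13 for MRPL44, 0.24 for MRPL54, 0.13 for MRPL57, 0.25 for MRPS11, 0.32 for MRPS14, 0.37 for MRPS18C, 0.33 for MRPS25, 0.37 for MRPS36, 0.21 for MRPS5 and 0.15 for MRPS6, all negative with TMM. Of the lower members not described singly, MRPL16 (0.06 and 0.22), MRPL43 (0.10 and 0.25) and MRPL27 (0.08 and 0.24) turned positive with library totals and with TPM, and MRPL14 (0.15) with TPM.

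Leaving out 1 library at a time gave a median of 0.03 to 0.09, 15 to 26 higher and 9 to 15 lower for Sen (IR), a median of 0.13 to 0.20 for CCCP and of -0.17 to -0.12 for acetate. For mtDNA it gave 1 to 4 higher, 1 to 5 lower and a median of -0.01 to 0.04. The combination had 0 to 2 higher and 3 to 10 lower against acetate, 3 to 6 higher against mtDNA, and 0 to 1 lower for the interaction. With the replicate number as a block, 26 members were higher and 12 lower for Sen (IR), 38 and 14 for CCCP, 6 and 37 for acetate, and 3 and 3 for mtDNA. The combination had 7 and 47 against Sen (IR) + CCCP, 2 and 8 against acetate and 5 and 49 against mtDNA, and the interaction 0 and 0. Samples with the same number correlated between -0.0821 and 0.0917 in their deviations (median 0.00525). Samples with different numbers correlated between -0.105 and 0.0954 (median -0.00181). Each deviation is taken from a mean of only 3 libraries, so these values cannot settle whether libraries of the same number shared a culture or day.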

Other observations

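The mitoribosomal proteins whose genes carry other names were measured as well, as 5 genes. DAP3, a GTP-binding protein of the small subunit, rose in Sen (IR) against Prol (log2 fold change 0.45 ± 0.05, adjusted p = 3.46e-08, edgeR's quasi-likelihood test) and with acetate (0.16 ± 0.05, adjusted p = 0.00490). PTCD3 fell with mtDNA (-0.22 ± 0.05, adjusted p = 0.00289). GADD45GIP1, of the large subunit, fell with the combination against mtDNA (-0.37 ± 0.13, adjusted p = 0.0176), a comparison in which 3 of the 5 were lower and 0 higher.

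In the mtDNA comparisons, the translation release factor MTRF1 fell without acetate (-0.42 ± 0.09, adjusted p = 0.00146) and with it (-0.36 ± 0.09, adjusted p = 0.00876), in libraries that do not overlap. The valyl-tRNA synthetase VARS2 also fell in both (-0.53 ± 0.10, adjusted p = 0.000549, and -0.55 ± 0.10, adjusted p = 0.000811). The recycling factor GFM2, which fell with CCCP, rose with the combination against mtDNA alone (0.51 ± 0.05, adjusted p = 4.49e-09).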
